A study of Rattus norvegicus with 2 samples.

Results

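Receptor tyrosine kinases, their ligands and the insulin-like growth factor (IGF) binding proteins were followed in AT6.1, a rat line of prostate cancer cells that is long established. The set holds 41 listed genes, and its members are the probe sets annotated to exactly 1 gene whose symbol is on the list. Of the 41 genes, 39 had such a probe set, among 14217 genes represented on the array, and these 39 had 75 probe sets. Pdgfb and Ephb2 were not analysed here. There was 1 array from a clone transfected with N-myc downstream regulated gene-1 in the pcDNA3 vector (clone 7, below the Ndrg-1 clone) and 1 array from a clone transfected with the vector alone (clone 9, below the vector clone). Both clones came from the same cell line, grew with 10% fetal calf serum and were kept in 0.3 mg/mL of the selection drug G418. Each group is 1 clone, 1 culture and 1 array, so the effects of clone, culture, array and insert cannot be told apart and no p-value is given.

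Receptor tyrosine kinases are cell surface receptors that pair up when a ligand binds, phosphorylate each other on tyrosine and pass the signal to the RAS-MAPK and PI3K-AKT pathways. In prostate tissue, stromal cells are a known source of FGF7, HGF and IGF1 for receptors on epithelial cells, and tumour cells can come to make ligands of their own. IGF-binding proteins hold IGFs outside the cell and thereby set how much of the ligand reaches the receptor. TAM receptors (TYRO3, AXL and MERTK) bind GAS6, and TYRO3 and MERTK also bind protein S. TAM receptors are known for clearance of dying cells and for resistance of tumour cells to therapy.

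Values are probe set signals (intensities on a linear scale), given below as deposited. Median signals were 31.1 in the Ndrg-1 clone and 31.2 in the vector clone. A signal floor was set at the median of all signals, 31.0, and a gene counted as measured when its brightest probe set was above the floor in at least 1 array, as was so for 9182 genes. A gene under the floor has a signal too low to compare here, which does not show that its transcript was absent. The ratios below set the Ndrg-1 clone over the vector clone after the vector clone was rescaled by 0.0048 on the log2 scale. The only error in the data is the disagreement between probe sets of 1 gene, with an SD of 0.23 on the log2 ratio (5336 probe sets of 2296 genes). It was 0.32 for probe sets with a mean signal under 100 and 0.19 for those at 100 or more, and it leaves out variation between clones, cultures and arrays. The brighter of 2 Ndrg1 probe sets had signals of 1353 and 1062 and the dimmer 154 and 181, so neither probe set of the transfected gene reached 2-fold in the clone labelled with it. Mesenchymal markers were above the floor for 8 of 9 genes (Vim at 4344 and 5798), while 1 of 12 epithelial markers (Krt8 at 38.7 and 46.2) and 1 of 5 prostate markers (Tmprss2 at 35.4 and 18.7) were. The defining epithelial genes Cdh1 and Epcam were under the floor in both arrays, so these arrays do not show an epithelial profile for the prostate label.

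The floor was passed by 18 of the 39 genes in 1 array or both, by 16 of them in both, and by 21 in neither. In the Ndrg-1 clone, Gas6 passed 2-fold upwards, and Fgfr1 and Igfbp7 passed it downwards. Here 1 of 18 was higher and 2 were lower. The same threshold was passed upwards by 1.62% and downwards by 1.5% of all measured genes, together 3.13%. The median log2 ratio of the 18 genes was -0.16, with 12 below 0 and 6 above, beside a median of 0.0029 and 49.6% below 0 for all measured genes. By role, 11 of 21 receptors were measured (8 below 0, 3 above), 5 of 12 ligands (2 below 0, 3 above) and 2 of 6 IGF-binding proteins (both below 0). The counts on each side of 0 depend on the scaling, which moves all genes together. With the vector clone scaled to the hybridisation spikes, 4 members lay below 0 and 15 above, beside 6.61% of all measured genes below 0. Scaled to the poly-A spikes, 14 members lay below 0 and 4 above, beside 76.1% of all measured genes below 0. In bulk RNA, fewer cells with a transcript and less of it per cell cannot be told apart.

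**Figure D1:**
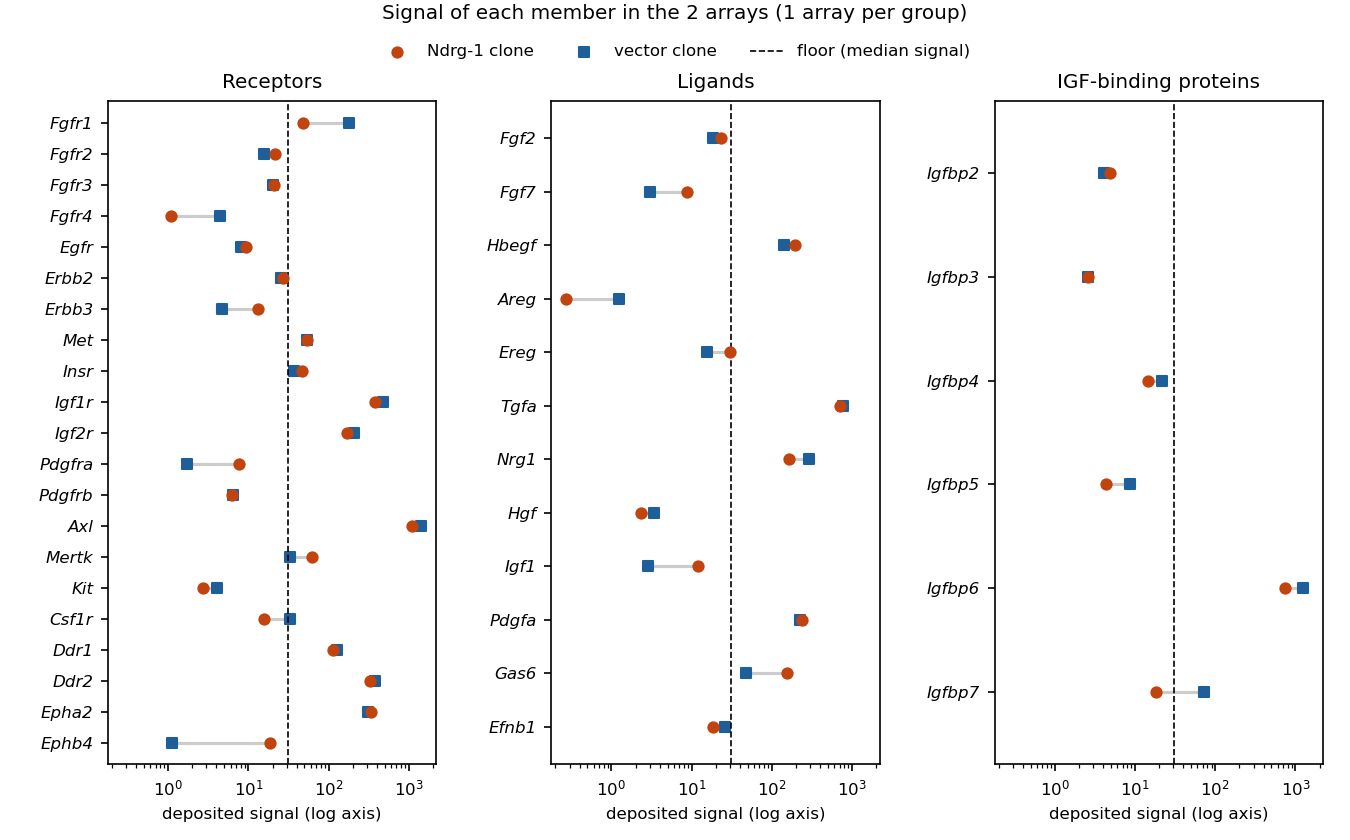
Deposited signal (log axis) of the brightest probe set for each of the 39 genes, by role, with the Ndrg-1 clone as circles, the vector clone as squares and the floor of 31.0 as a dashed line. Of the 39 genes, 21 lie left of the line in both arrays, and the widest gaps among those to its right are for Fgfr1, Igfbp7 and Gas6.

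Fgfr1 was the one fibroblast growth factor receptor above the floor. Fgfr1, which transmits FGF signals in many mesenchymal cells, gave signals of 48.1 (Ndrg-1 clone) and 182 (vector clone) on probe set 1372447_at. Its other probe set, 1387498_a_at, had 34.9 and 89.0. Both probe sets were above the floor in both arrays and lower in the Ndrg-1 clone, by 3.79-fold (log2 ratio -1.92) and 2.56-fold (-1.36). Each lay beyond 2 SD of the disagreement between probe sets, which was 0.46. A floor at the 75th percentile of signals, 171.5, lies just under the vector signal of the brighter probe set and left a log2 ratio of -0.09 and no call.

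The other FGF receptors and both FGFs of the set were under the floor. Fgfr2, the receptor that in its epithelial form binds FGF7, had 21.8 and 15.8 on the brightest of its 5 probe sets. Fgfr3 had 20.8 and 20.4, and Fgfr4 had 1.08 and 4.37. Fgf2, a mitogen for mesenchymal cells and a ligand of all these receptors, had 23.4 and 18.4. Fgf7, the stromal growth factor for epithelium, had 8.64 and 3.02. Fgfr1 thus had no partner above the floor in the set. Outside the set, Fgf1 (listed with Fgfr1), Fgf9 (listed with Fgfr3) and Fgf10 (listed with Fgfr2) were under the floor as well. Syndecans and glypicans carry the heparan sulphate on which FGFs bind their receptors. The list around these had 24 measured genes, with other co-receptors, heparan sulphate enzymes, IGF carriers and the RNA-binding Igf2bp2 and Igf2bp3. Of the 24, 1 was at least 2-fold higher (1.62% of all measured genes) and 2 were at least 2-fold lower (1.5%). The higher one was the semaphorin and VEGF co-receptor Nrp1 (370 against 88.9). The lower ones were the glypican Gpc6 (43.0 against 100.4, 2.34-fold) and the heparan sulphate 6-O-sulphotransferase Hs6st1 (43.8 against 99.8, 2.29-fold). The median of this list was 0.05. With a pseudocount of 16 in place of the floor, neither of the lower genes reached 2-fold and 2 genes were higher. The list also had 0 genes 2-fold lower when scaled to the hybridisation spikes or with a floor at the 75th percentile. It had 1 with the median over probe sets, and 3 with a floor at the 25th percentile or scaled to the poly-A spikes.

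Gas6 and its receptors gave the only listed ligand and receptors that were above the floor together in both arrays. Gas6, the vitamin K-dependent ligand of the TAM receptors, had 152 in the Ndrg-1 clone and 47.3 in the vector clone on probe set 1383047_at, a 3.21-fold higher signal (log2 ratio 1.68). Its probe set 1369735_at had 45.1 and 66.7, a log2 ratio of -0.57, and 1392784_at had 55.1 and 49.1, a log2 ratio of 0.16. The 3 probe sets disagree in sign, and the call rests on 1383047_at alone. The median over them was 0.16, which is under 2-fold.

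Axl, the TAM receptor tied to invasive growth, had 1090 in the Ndrg-1 clone and 1436 in the vector clone, a log2 ratio of -0.40. It turned to 0.14 when scaled to the hybridisation spikes. Mertk, the TAM receptor best known from phagocytes, had 61.9 and 33.2, a log2 ratio of 0.89 (1.86-fold higher) that stayed under 2-fold. Its second probe set, 1369382_at, was under the floor at 24.4 and 13.5. Mertk was thus above the floor in both arrays by a narrow margin in the vector clone. With the median over probe sets, the second of them at 0 because it was under the floor, Mertk had a log2 ratio of 0.45. Scaled to the hybridisation spikes it passed 2-fold at 1.26 or more, a bound because the vector clone then lay under the floor. Pros1, which encodes protein S, a ligand of MERTK and TYRO3, was above the floor at 325 and 306 (log2 ratio 0.08), and Tyro3 was under it.

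Macrophages express Mertk and Csf1r, so their markers stand beside these genes. Of 11 markers of macrophages and leukocytes, 2 were above the floor, Cd68 at 206 and 114 and Cd14 at 210 and 308. The summed signal of the 11 was 500.3 in the Ndrg-1 clone and 500.4 in the vector clone. Cd68 and Cd14 differed in opposite directions within this sum, so it does not show an equal content of such cells. The defining leukocyte gene Ptprc was at 2.72 and 3.25, and Adgre1 and Itgam were also under the floor. The part of such cells in the Mertk and Csf1r values was not tested. Csf1r, the receptor for the macrophage growth factor CSF1, had 15.7 in the Ndrg-1 clone and 33.3 in the vector clone, so it was just above the floor in the vector clone alone. Its log2 ratio was -0.11 or lower at this floor, and -1.09 with the floor at the 25th percentile, 7.66. Csf1, its ligand, had 352 and 342 (log2 ratio 0.04). Kit, the stem cell factor receptor, had 2.76 and 4.07, whereas its ligand gene Kitlg had 642 and 764 (log2 ratio -0.25). Mast cells depend on Kit, and 1 of 5 mast cell markers was above the floor (Tpsb2, 49.0 and 8.69).

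**Figure D2:**
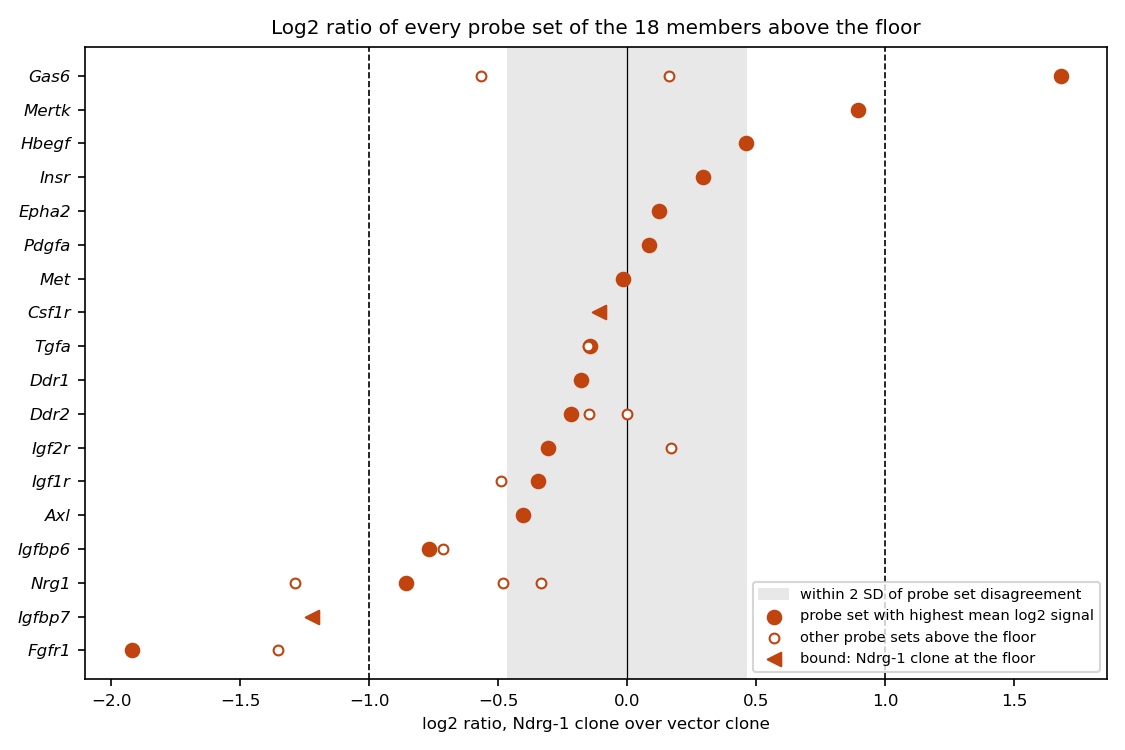
Log2 ratio (Ndrg-1 clone over vector clone) of the 30 probe sets of the 18 measured genes, with the brightest probe set of each gene filled, other probe sets open, and triangles for bounds where the Ndrg-1 clone was at the floor. Dashed lines mark 2-fold and the grey band 2 SD of the disagreement between probe sets (0.46). Both Fgfr1 probe sets lie left of the 2-fold line, while the 3 of Gas6 spread over both sides of 0.

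Both measured IGF-binding proteins were lower in the Ndrg-1 clone, and 1 of them passed 2-fold. Igfbp7, a secreted protein that is related to the IGF-binding proteins and binds IGFs weakly, had 18.4 in the Ndrg-1 clone and 72.2 in the vector clone. The Ndrg-1 clone was under the floor, so Igfbp7 was at least 2.34-fold lower. Its log2 ratio was -1.98 when the floor was moved down to the 25th percentile, and scaled to the hybridisation spikes it was -0.94, which is under 2-fold. Igfbp7 has 1 probe set. Igfbp6, which prefers IGF2 over IGF1, had 735 and 1248 on 1372168_s_at and 695 and 1135 on 1387625_at. Its probe sets gave nearly equal log2 ratios of -0.77 and -0.71, beyond 2 SD of the disagreement between probe sets and short of 2-fold. Scaled to the hybridisation spikes, the first became -0.22. The other 4 (Igfbp2, Igfbp3, Igfbp4 and Igfbp5) were under the floor, with Igfbp4 the highest at 14.4 and 21.9. Igfbp3, a main IGF carrier in serum, was at 2.60 and 2.61.

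The stretches just before the annotated starts of Gas6, Igfbp7 and Igfbp6 show the promoters of the ligand and the binding proteins described above. They come from RefSeq on build GRCr8, which held such a stretch for 35 of the 41 genes. Each is 250 bases long, on the + strand, 5′ to 3′, and capitals mark a GC box (GGGCGG on either strand), the motif read by SP1-type factors.
Gas6, chr16:82747426-82747675: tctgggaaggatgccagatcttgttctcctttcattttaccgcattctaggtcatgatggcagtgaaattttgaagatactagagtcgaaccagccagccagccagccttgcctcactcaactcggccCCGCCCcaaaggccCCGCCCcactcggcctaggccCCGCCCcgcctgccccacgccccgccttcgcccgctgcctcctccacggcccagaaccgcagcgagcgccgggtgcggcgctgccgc
Igfbp7, chr14:31091486-31091735: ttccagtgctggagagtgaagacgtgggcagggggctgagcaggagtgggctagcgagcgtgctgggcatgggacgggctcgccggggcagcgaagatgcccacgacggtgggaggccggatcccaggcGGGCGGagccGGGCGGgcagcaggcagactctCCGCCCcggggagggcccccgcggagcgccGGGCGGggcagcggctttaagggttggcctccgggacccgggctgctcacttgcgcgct
Igfbp6, chr7:135154669-135154918: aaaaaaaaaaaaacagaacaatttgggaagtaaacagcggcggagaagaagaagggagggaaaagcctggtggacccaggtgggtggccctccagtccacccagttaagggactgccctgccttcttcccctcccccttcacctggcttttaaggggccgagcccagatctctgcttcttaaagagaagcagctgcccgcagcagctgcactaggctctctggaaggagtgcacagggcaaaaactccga
The GC box matched 3 times before Gas6, 4 times before Igfbp7 and 0 times before Igfbp6, and 30.5% of all 33469 such stretches held it. The 3 other motifs searched, on both strands, were the TATA box (TATAAA, in 12.9% of all stretches), the AP-1 site (TGACTCA, in 4.05%) and the E-box (CACGTG, in 5.59%), and these letters were in none of the 3. The motifs do not overlap one another in these stretches. The arrays carry no measure of binding at these stretches, so the matches are a description of sequence.

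The IGF receptors were above the floor and their ligands were not. Igf1r, which carries growth and survival signals of IGF1 and IGF2, had 379 and 479 on its brighter probe set and 162 and 227 on the other, log2 ratios of -0.35 and -0.49. Igf2r, which takes up IGF2 for breakdown and sorts lysosomal enzymes, had 170 and 209 on one probe set and 92.4 and 81.9 on the other. These gave log2 ratios of opposite sign, -0.31 and 0.17. Insr, the insulin receptor, had 46.2 and 37.6 (log2 ratio 0.29), and its other probe set was under the floor. None of the 3 receptors reached 2-fold, and Igf1r and Igf2r turned to 0.20 and 0.24 when scaled to the hybridisation spikes. Igf1 had 11.9 and 2.89, and the further ligands Igf2 (21.8 and 12.1) and Ins2 (12.0 and 4.45) were also under the floor.

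In the EGF family, 3 of the 5 ligands of the set were above the floor and all 3 receptors were under it. Tgfa, a ligand of EGFR, had 699 and 769, and its other probe set 460 and 510, log2 ratios of -0.14 and -0.15. Hbegf, the heparin-binding ligand of EGFR and ERBB4, had 193 and 140, a log2 ratio of 0.46, just inside 2 SD over all probe sets (0.46) and outside 2 SD of those with a mean signal of 100 or more (0.37). It came just past 2-fold when scaled to the hybridisation spikes.

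Nrg1, whose products bind ERBB3 and ERBB4, was lower in the Ndrg-1 clone on each of its 4 probe sets above the floor. The brightest had 163 in the Ndrg-1 clone and 293 in the vector clone, a log2 ratio of -0.86 (1.81-fold lower). The others had 106 and 148 (-0.48), 68.1 and 85.5 (-0.33), and 46.8 and 114 (-1.29, 2.44-fold lower). One of the 4 probe sets thus passed 2-fold, and the brightest did not. Its log2 ratio was -1.07 when scaled to the poly-A spikes and -0.31 when scaled to the hybridisation spikes, and the median over all 8 probe sets, with those under the floor at 0, was -0.17. The array reads several forms of Nrg1, which has many splice forms, and its 4 remaining probe sets were under the floor.

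The receptors of this family were under the floor in both arrays. Egfr was at 9.26 and 8.15 on the brightest of 3 probe sets. Erbb2, the partner that binds no ligand itself, was at 26.9 and 25.6. Erbb3, the neuregulin receptor with little kinase activity of its own, was at 13.1 and 4.65, and Erbb4 was under the floor as well. The EGFR ligands Areg and Ereg were also under it, Areg at 0.27 and 1.23 and Ereg at 30.1 and 15.6, just short of it in the Ndrg-1 clone. Outside the set, the family ligands Egf, Btc, Nrg2 and Nrg4 were under the floor in both arrays.

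Growth factor ligands of the EGF family are released from the membrane by ADAM proteases, and IGF-binding proteins are cut by secreted proteases. Of 17 measured genes for such proteases and their regulators, 14 were below 0, with a median of -0.32, beside 49.6% of all measured genes below 0. Of the 17, 2 were at least 2-fold lower (1.5% of all measured genes) and 0 were at least 2-fold higher (1.62%). This list was chosen with earlier results of these data known. The lower ones were Adam15 (431 against 1061, 2.47-fold) and Adam9 (43.1 against 87.2, 2.03-fold). Adam17, the main sheddase of TGF-alpha, had 524 and 649 (log2 ratio -0.31), and Adam10 had 86.0 and 83.2 (0.04). Htra1, which can cut IGF-binding proteins, had 2852 and 3561 (-0.33). Scaled to the hybridisation spikes, 0 of these genes were 2-fold lower.

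Among the remaining receptors, none that was above the floor in both arrays reached 2-fold. Met, the receptor for hepatocyte growth factor, had 53.2 and 53.7 (log2 ratio -0.02), while Hgf was at 2.32 and 3.37. Ddr1 and Ddr2, receptor tyrosine kinases whose ligand is collagen, had 113 and 128 (-0.18) and 329 and 381 (-0.22). The further probe sets of Ddr2 had log2 ratios of -0.15 and 0.0012, and that of Ddr1 was under the floor. Fibrillar collagens I and III are among their ligands, and the chains of these differed in direction. Col1a1 had 167 and 76.9 on one probe set (log2 ratio 1.11) and 56.4 and 31.0 on the other (0.86). Col1a2 had 2197 and 2061 on its brighter probe set (0.09) and Col3a1 had 356 and 1038 (-1.55, 2.93-fold lower). Col1a2 and Col3a1 were chosen after their values were seen. Epha2, an ephrin-A receptor common in invasive tumour cells, had 340 and 311 (0.12). Its ligand gene Efna5 had 116 and 199 (-0.78), and Efna1 was under the floor. Ephb4 was at 18.4 and 1.13 and the ephrin Efnb1 at 18.5 and 25.7, both under the floor. Pdgfa, a ligand of PDGFRA, had 235 and 221 (0.08), whereas Pdgfra was at 7.65 and 1.74 and Pdgfrb at 6.26 and 6.35.

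Of the 20 receptor-ligand pairs listed within the set, 17 had both partners on the array. Both partners were above the floor in both arrays for 2 pairs, Axl with Gas6 and Mertk with Gas6. The receptor alone was above it for 4 pairs (Fgfr1 with Fgf2, Met with Hgf, and Insr and Igf1r with Igf1). The ligand alone was above it for 4 pairs (Egfr with Hbegf and with Tgfa, Erbb3 with Nrg1, and Pdgfra with Pdgfa), and neither was for 7. In both joint pairs the ligand was 3.21-fold higher in the Ndrg-1 clone on the Gas6 probe set that the other 2 did not bear out, and neither receptor reached 2-fold. The number of joint pairs moves with the floor, from 8 at the 25th percentile to 0 at the 75th. A further 22 pairs took 1 partner from outside the set, of which 21 were on the array and 5 had both partners above the floor in both arrays. These were Axl and Mertk with Pros1, Epha2 with Efna5, and Ddr1 and Ddr2 with Col1a1. Axl with Pros1 was counted as listed, although protein S is known as a ligand of MERTK and TYRO3 rather than AXL.

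**Figure D3:**
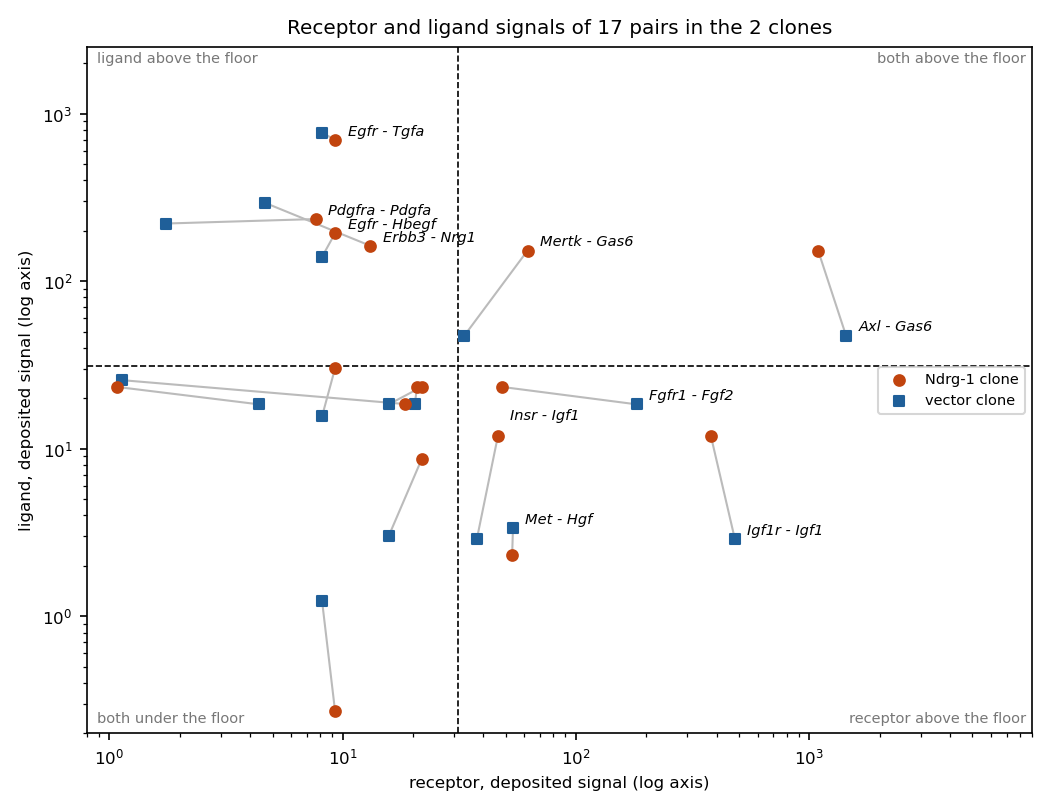
Deposited signals of receptor (horizontal) and ligand (vertical) on log axes for the 17 pairs, with a grey line joining the Ndrg-1 clone (circle) and the vector clone (square) and dashed lines at the floor of 31.0. Axl and Mertk with Gas6 are the 2 pairs in the upper right field in both arrays. Signals of different probe sets are placed against the floor, not against each other.

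In the 7 lists around the set, 12 of 132 measured genes passed 2-fold (5 higher, 7 lower), a share of 9.09% beside 3.13% of all measured genes. The lists were chosen with earlier results of these data known, so no excess over all genes can be read from this share. Of 10 measured ligands outside the set, Mst1, the ligand of the MET-related receptor RON, was at least 3.42-fold higher (106 against 27.8), and Bdnf, the ligand of TRKB, was at least 2.64-fold lower (20.9 against 81.8). The median of this list was -0.08. Of 26 receptors outside the set on the array, 3 were measured, and Epha4, an ephrin receptor, was 2.03-fold lower at 67.3 against 136. Its other 2 measured probe sets had log2 ratios of -0.80 and -1.12, the latter an upper bound because the Ndrg-1 signal lay under the floor. With the median over probe sets Epha4 was no longer called, nor was Bdnf.

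Adaptors and downstream kinases showed no gene past 2-fold in either direction among 32 measured at this floor and scaling, beside 3.13% of all measured genes. Their median log2 ratio was 0.01. The highest was the insulin receptor substrate Irs2 at 0.57 (184 against 123) and the lowest the PI3K subunit Pik3cd at -0.62. Negative feedback and receptor turnover genes had 1 of 23 higher (1.62% of all measured genes) and 1 lower (1.5%), with a median of -0.09. Lrig1, which promotes breakdown of EGFR family receptors, was at least 2.30-fold higher (71.3 against 24.8), and Spry4, an FGF-inducible inhibitor of RAS-MAPK signalling, was 2.47-fold lower (142 against 350). Dusp6, the ERK phosphatase induced by FGF signalling, had log2 ratios of -0.55, -0.68 and -0.45 on its 3 probe sets, all under 2-fold. In this list 14 genes were below 0 and 9 above, the latter with Dusp7 at 0.67, Dusp1 at 0.50 and Spry2 at 0.08. Of 23 measured ETS and immediate early genes, Fos was at least 4.43-fold higher and Fosb at least 2.17-fold higher, beside 1.62% of all measured genes. In this list 0 were lower (1.5% of all measured genes) and the median was 0.11. The other Fos probe set was under the floor in both arrays, at 11.1 and 28.3. Etv4 and Etv5, ETS factors induced by FGF signalling, were at -0.08 and -0.15. Scaled to the hybridisation spikes, Spry4 and Epha4 were no longer 2-fold lower, while the genes at least 2-fold higher came to 5 among ETS and immediate early genes, 4 among feedback and turnover genes and 2 among adaptors and downstream kinases. When the 25th percentile was the floor, 1 adaptor or kinase gene was higher and 1 lower. At the 75th, Lrig1, Fos, Fosb, Mst1, Bdnf and Epha4 were no longer called, nor were Gpc6, Hs6st1 and Adam9 of the other lists.

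**Figure D4:**
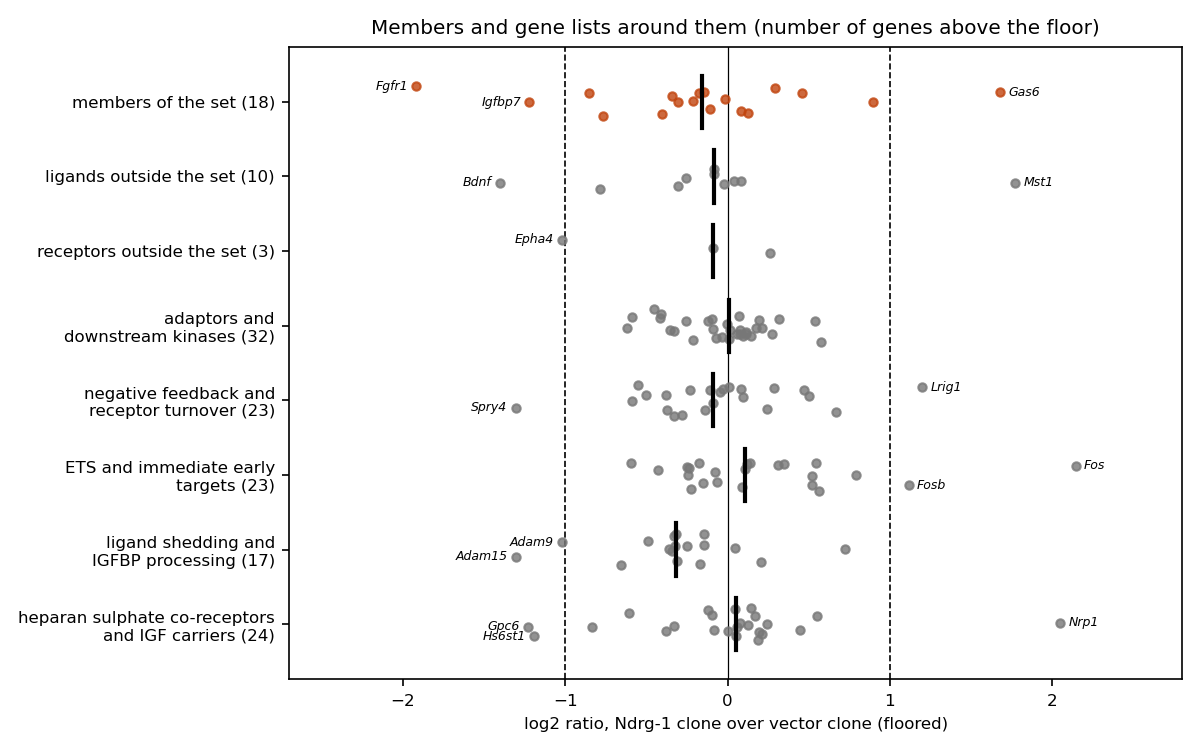
Log2 ratio (Ndrg-1 clone over vector clone) of the 18 measured genes of the set and of the measured genes of 7 lists around it, with a thick bar at each median and dashed lines at 2-fold. The median of the set is -0.16, that of adaptors and downstream kinases 0.01 and that of shedding and processing proteases with their regulators -0.32.

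Among the 16 genes of the set above the floor in both arrays, 5 (Fgfr1, Nrg1, Igfbp6, Mertk and Gas6) had a ratio beyond 2 SD of the disagreement between probe sets, beside 15.3% of all genes above the floor in both arrays. With the SD of probe sets of the same signal range, chosen after seeing the data, Hbegf and Axl joined them and made 7 of 16, beside 18.8% of all such genes. Of the 8 genes with several measured probe sets, these ran together for Fgfr1, Tgfa, Igf1r and Igfbp6. They differed in sign for Gas6, Igf2r and, by a value close to 0, Ddr2, and only 1 of 4 passed 2-fold for Nrg1.

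**Figure D5:**
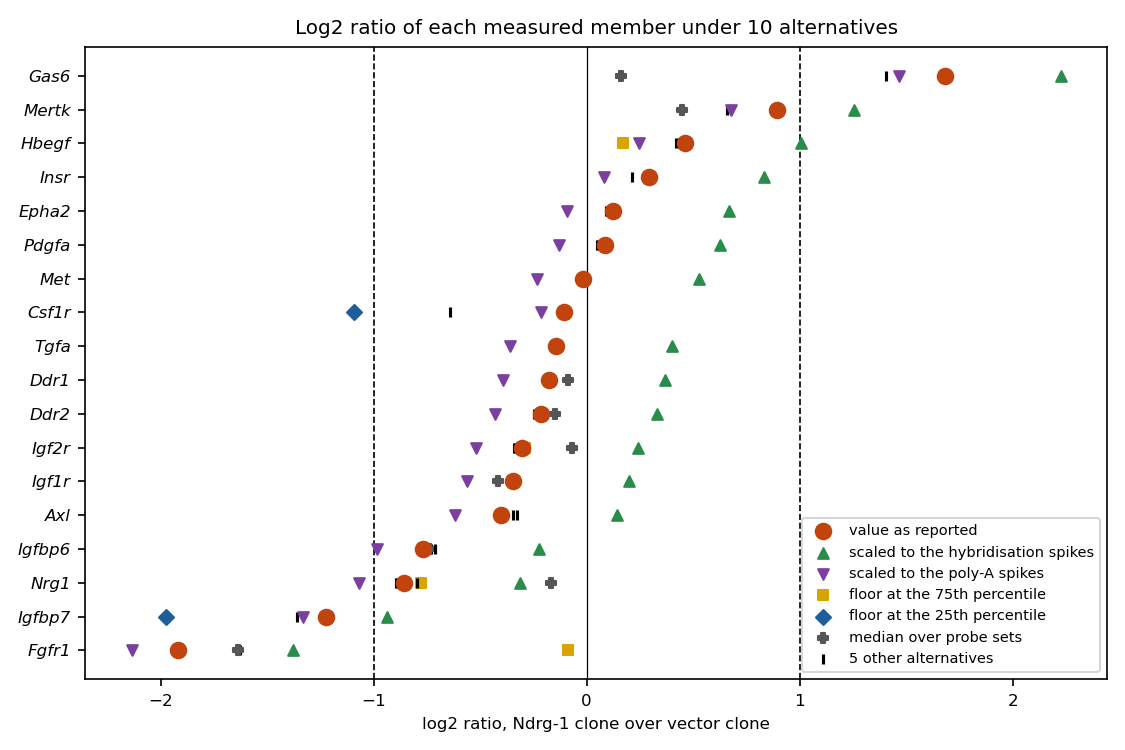
Log2 ratio of each of the 18 measured genes as reported (large circles) and under up to 10 alternative settings, with dashed lines at 2-fold. Fgfr1 stays left of -1 except with the floor at the 75th percentile (-0.09), and Gas6 drops to 0.16 with the median over its probe sets.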

How the data were processed

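Affymetrix arrays were read for 2 samples, 1 per group. The deposited values are 1 intensity (linear probe set signal) per probe set, from GCOS 1.3 (per the submitters' processing notes). How probes were summarised and which scaling target was set is not given in the sources used here. Leaving out the lowest and highest 2%, each array had a mean of 150.0, which puts the deposited intensities on a common scale. The number of arrays limits the precision.

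After 57 control probe sets were removed, 20826 of 31042 carried 1 gene symbol, of which 20758 matched RefSeq (GRCr8) by gene ID. The vector clone was rescaled to a median log2 ratio of 0 over probe sets above the overall median, signals under the floor (50th percentile) were set to it, and a gene was read from its brightest probe set by mean log2 signal. A difference counted at 2-fold. Where 1 array is at the floor, the value is a bound ("at least N-fold" or "or lower"). Probe sets disagree when they differ in sign, by 1 or more on the log2 scale, or when only some pass 2-fold.

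Genes and lists were chosen with earlier results of these data known. All measured members are named. Of each list, up to 3 genes per direction past 2-fold are named, or else the highest and lowest, and further genes were chosen after their values were seen. Alternatives were no rescaling, quantile normalization, lowess, a pseudocount of 16, a floor at the 25th or the 75th percentile, the median over probe sets, and no _x_at or _s_at probe sets. Scaling to 18 hybridisation or 24 poly-A spike probe sets was added after seeing the data. The procedure was tested on simulated data. Software was Python 3.11.15 with matplotlib 3.10.9, statsmodels 0.14.6, pandas 2.3.3 and numpy 2.4.6.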

Additional observations from a re-analysis of the deposited data

How the results depend on the processing

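No rescaling, quantile normalization, lowess, and leaving out _x_at and _s_at probe sets left Gas6 as the 1 member 2-fold higher and Fgfr1 and Igfbp7 as the 2 lower, as did the pseudocount. At a floor of the 25th percentile, 31 members were measured, 2 were higher (Ephb4 joined), 3 were lower (Csf1r joined), 8 pairs had both partners above it, and the median log2 ratio was 0.03. A floor at the 75th percentile left 11 measured, of which 0 were higher, 0 lower and 0 pairs were joint, since fewer genes can pass it. With the median over probe sets 0 were higher and 1 pair was joint. Scaled to the hybridisation spikes, which moved the median of all genes to 0.53, 3 were higher (Hbegf, Mertk, Gas6), 1 lower (Fgfr1), 1 pair was joint and the median was 0.33. Scaled to the poly-A spikes, which moved it to -0.21, 1 was higher, 3 lower (Nrg1 joined) and the median was -0.38. Across all genes the counts higher and lower were 149 and 138 as reported, 444 and 463 with the lower floor, 23 and 34 with the higher one, 732 and 43 with the hybridisation spikes and 101 and 240 with the poly-A spikes. Of 171 values of single members under the 10 alternatives, 141 moved by less than the SD of 0.23. Of 140 counts in the 7 lists, 110 stayed within 1.5 times. The members beyond 2 SD of the disagreement between probe sets, 5 as reported, numbered 10 and 1 with the lower and higher floor, 2 with the median over probe sets and 8 with the poly-A spikes. Scaled to the hybridisation spikes, Nrg1 and Igfbp6 came inside 2 SD and Mertk was no longer above the floor in both arrays. Hbegf, Met, Pdgfa and Epha2 came beyond 2 SD with that scaling. No paired analysis was possible because each group holds 1 array. Signals near the floor limit Fgfr1, Gas6, Mertk, Met, Insr, Csf1r and Igfbp7, and Insr was under the floor with the median over probe sets.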

Other observations

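Of the 21 members under the floor in both arrays, 13 had a signal above the 25th percentile of all signals (7.66) in at least 1 array. Ephb4, a receptor for ephrin-B2, was the 1 that reached 2-fold with that lower floor, at 18.4 in the Ndrg-1 clone and 1.13 in the vector clone (at least 2.40-fold higher). Of all 3099 genes between both floors, 13.9% reached 2-fold in either direction. Ereg, which encodes the EGFR ligand epiregulin, was at 30.1 and 15.6, a log2 ratio of 0.94 and the closest of the others to 2-fold. Erbb3 had a log2 ratio of 0.78 or more and Igf1 of 0.63 or more, both bounds set by the vector clone. Igfbp4 had -0.61, Efnb1 -0.48, Erbb2 0.06, Fgfr3 0.03 and Fgf2 0.34. No detection calls were used, and these signals cannot be told from background here.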
